A study of Mus musculus with 8 samples.

Results

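The 10 genes followed here belong to the VEGF, angiopoietin and PDGF families and were measured in mouse ovarian follicles. They encode the secreted factors Vegfa, Vegfb, Vegfc, Pgf, Angpt1, Angpt2, Pdgfa and Pdgfb, and the receptors Pdgfra and Pdgfrb. They were taken by symbol from the deposited count tables and are 10 of the 21997 genes that both tables list. Of these, 9 passed the filter on low counts and stood among the 17925 genes tested; Pgf did not pass. RNA was sequenced from 8 follicles of C57BL/6 ovaries, with 1 library per follicle and 2 libraries in each of 4 groups. SAF-TF and PF-TF are small antral and preantral follicles that, per the labels, came from transplanted female germline stem cells (FGSCs). SAF-WT and PF-WT are the same follicle stages taken from wild type mice. A preantral follicle is an oocyte within layers of granulosa cells, and a small antral follicle has begun to form a fluid-filled cavity. Nothing in the labels tells which cells in a TF follicle descend from the transplanted ones, what the host mice were, how old any mouse was, or whether replicate follicles were taken from different animals. The p-values therefore measure the spread between these follicles.

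Blood vessels grow toward VEGF. Vegfa binds the receptors Kdr and Flt1 on endothelial cells and drives sprouting and leakiness, Vegfb and Pgf bind Flt1, and Vegfc acts through Flt4 on lymphatic endothelium. Angpt1 activates the endothelial receptor Tek and steadies vessels, while Angpt2 binds the same receptor and, depending on context, opposes it. PDGF ligands act on mesenchymal cells: Pdgfa binds Pdgfra, and Pdgfb binds both receptors and draws pericytes to new capillaries through Pdgfrb. In the ovary the oocyte and granulosa layers of a follicle hold no vessels, the capillaries run in the surrounding theca, and this network expands as follicles grow.

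Promoter sequences are shown for 3 VEGF ligands and for Pdgfra. They were chosen because Vegfa and Vegfc were called higher at the small antral stage, within limits given below, while Vegfb passed no test. Pdgfra had the smallest adjusted p of the 10 genes. RefSeq promoter entries on GRCm38.p6 were found by symbol for 6 of the 10 genes. Each window below holds the 250 bases before the RefSeq start site, 5′ to 3′ on the gene's strand, and none of its bases lies in an annotated exon. Capitals mark the GC box GGGCGG or its reverse complement CCGCCC, a letter pattern read by Sp1-type factors. The 3 VEGF ligand windows shown hold it and the Pdgfra window does not. Windows not shown were cut short by exons. The 117 bases kept before start site 1 of Pdgfa hold 1 GC box, starting 60 bases before the site. The 32 bases kept before start site 2 of Vegfa hold 0. For Pgf, all 250 bases were masked at both start sites.
Vegfa, chr17:46032378-46032627, minus strand: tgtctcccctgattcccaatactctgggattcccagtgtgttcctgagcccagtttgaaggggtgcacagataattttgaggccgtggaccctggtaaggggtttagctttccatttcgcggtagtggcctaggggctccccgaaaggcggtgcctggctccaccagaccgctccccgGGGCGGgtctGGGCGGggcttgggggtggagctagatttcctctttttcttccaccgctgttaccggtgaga
Vegfb, chr19:6987652-6987901, minus strand: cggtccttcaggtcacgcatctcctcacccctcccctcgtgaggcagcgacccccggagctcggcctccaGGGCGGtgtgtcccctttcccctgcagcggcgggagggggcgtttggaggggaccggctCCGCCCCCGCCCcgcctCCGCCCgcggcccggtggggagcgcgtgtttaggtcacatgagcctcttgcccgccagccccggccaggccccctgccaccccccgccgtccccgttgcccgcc
Vegfc, chr8:54077282-54077531, plus strand: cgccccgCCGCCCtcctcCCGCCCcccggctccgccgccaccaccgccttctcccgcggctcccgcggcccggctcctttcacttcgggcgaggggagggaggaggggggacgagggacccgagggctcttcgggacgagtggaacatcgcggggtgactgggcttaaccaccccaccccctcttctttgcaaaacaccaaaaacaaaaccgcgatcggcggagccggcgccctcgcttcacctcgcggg
Pdgfra, chr5:75152001-75152250, plus strand: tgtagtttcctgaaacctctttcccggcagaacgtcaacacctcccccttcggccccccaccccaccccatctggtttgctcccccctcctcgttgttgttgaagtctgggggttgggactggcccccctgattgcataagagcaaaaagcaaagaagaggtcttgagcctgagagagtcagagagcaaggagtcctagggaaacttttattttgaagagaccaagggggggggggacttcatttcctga
The Vegfa window holds 2 GC boxes, starting 72 and 62 bases before the start site. Vegfb holds 4, starting 180, 121, 115 and 104 bases before it, and Vegfc holds 2, starting 243 and 232 bases before it. No GC boxes overlap. Over all 32851 RefSeq promoter windows of this length, 32.7% hold at least 1 GC box on either strand. The letters ACGTG, 1 form of the hypoxia response core, are in none of the 4 windows on either strand, and in 16.6% of all windows. The letters AAGGTCA, a recognition pattern of several nuclear receptors, are also in none of the 4 on either strand, and in 4.08% of all. The other form of the hypoxia response core, GCGTG, was not counted over all windows, and the Vegfb window holds it on both strands. These are matches of letters in 1 short window per gene and say nothing of which factors act on the gene. G and C make up 59.2% of the Vegfa window, 76.4% of the Vegfb window, 71.6% of the Vegfc window and 54.4% of the Pdgfra window. GENCODE M21 places Vegfa at chr17:46016993-46032377, Vegfb at chr19:6982472-6987651, Vegfc at chr8:54077532-54186454 and Pdgfra at chr5:75151322-75198206, so the first 3 windows end at the base before the gene and the Pdgfra window lies inside the gene, outside its exons.

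Library totals ran from 7656108 to 9805287 counts, and 3 counts, the floor used here, correspond to 0.301 to 0.393 CPM (counts relative to the TMM-scaled library total). In PF-TF replicate 1, 18796 genes had at least 1 count, the fewest of the 8 libraries, and 4 of the 10 genes had 0 counts there. Oocyte markers were present in every library and summed to 524 and 274 CPM in SAF-TF, 18682 and 15781 CPM in PF-TF, 725 and 3412 CPM in SAF-WT and 9455 and 7809 CPM in PF-WT. Granulosa markers were present in every library, from 1991 CPM in SAF-WT replicate 1 to 7430 CPM in PF-TF replicate 2. Markers of cells around a follicle differed as well. Markers of pericytes and smooth muscle summed to 1988 and 1368 CPM in SAF-TF, 98.8 and 126 CPM in PF-TF, 3830 and 3064 CPM in SAF-WT and 693 and 214 CPM in PF-WT. Endothelial markers summed to 210 and 138 CPM in SAF-TF, 76.3 and 56.7 CPM in PF-TF, 300 and 260 CPM in SAF-WT and 68.3 and 97.3 CPM in PF-WT. Small antral libraries thus had higher sums of both marker lists than preantral libraries of the same source. Whether these markers came from vessel-associated cells was not tested. In follicles measured whole, fewer cells of a type and less RNA per cell cannot be told apart.

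**Figure D1:**
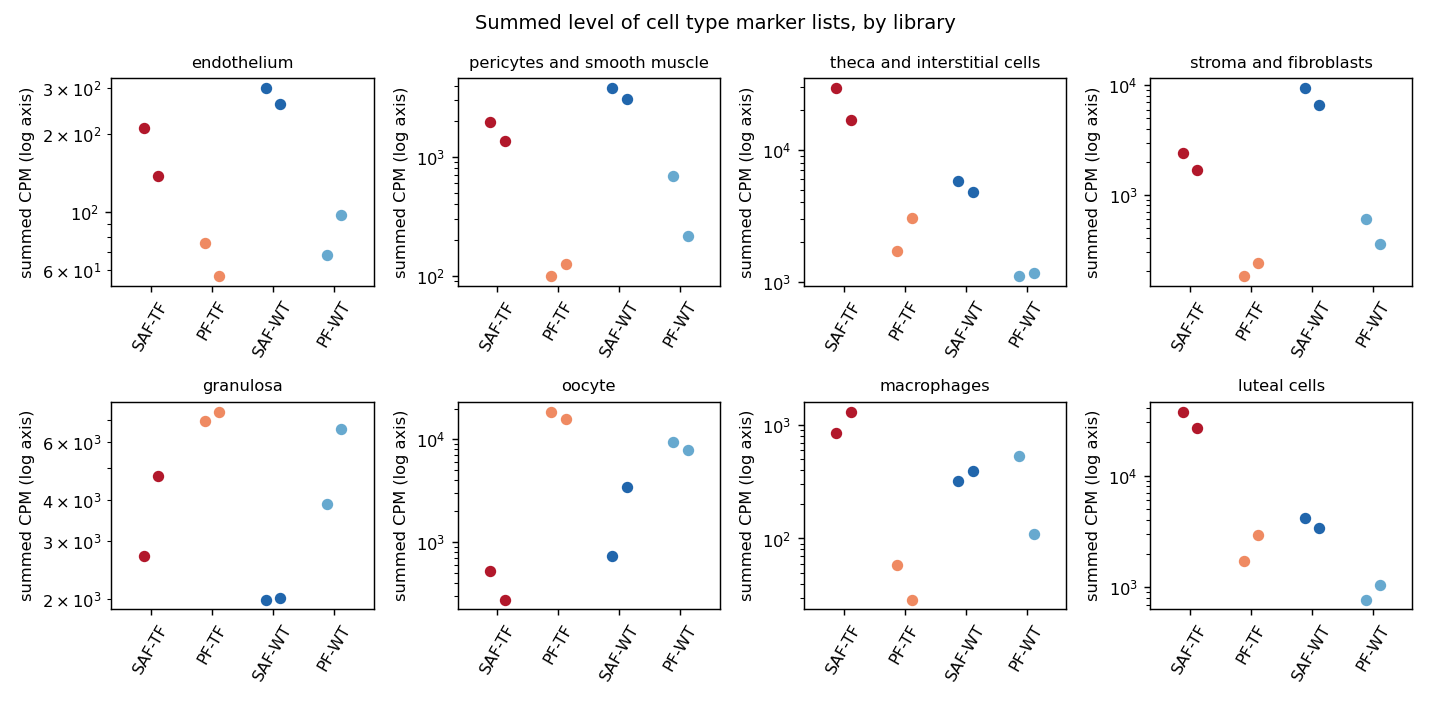
Summed CPM of 8 cell type marker lists (log axis) in each of the 8 libraries, by group. Hsd3b1, Lhcgr, Cyp11a1 and Star count in both the theca and the luteal list. Pericyte and smooth muscle, theca and stroma markers lie higher in both small antral groups than in the preantral group of the same source, and oocyte markers lie lower; luteal markers are at 37518 and 26838 CPM in SAF-TF.

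Between stages, 5 of the 10 genes had more RNA in small antral than in preantral follicles of both sources, and Pdgfb had less. In SAF-TF against PF-TF follicles 5 genes were higher (Vegfa, Vegfc, Angpt1, Pdgfra and Pdgfrb) and 1, Pdgfb, was lower; Vegfb, Angpt2 and Pdgfa did not pass the test and Pgf was not tested. Over all genes tested, 43.2% passed in that comparison, 18.2% as higher and 25% as lower. In SAF-WT against PF-WT follicles 7 were higher (the same 5 with Angpt2 and Pdgfa), Pdgfb was lower and Vegfb did not pass, where 35.1% of all genes passed, 12.7% as higher and 22.5% as lower. Vegfc and Pdgfrb had enough counts for the test through the small antral libraries alone, so a difference was built into their being tested and the counts are no support for a shared direction. With the authors' own scale factors the median log2 fold change over all genes was 0.27 in TF and 0.14 in WT, against -0.08 and -0.20 with TMM factors, and 56.2% of called genes in TF and 53.5% in WT were then higher, against 42.1% and 36.0% with TMM factors. The counts of the 10 genes passing did not change.

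**Figure D2:**
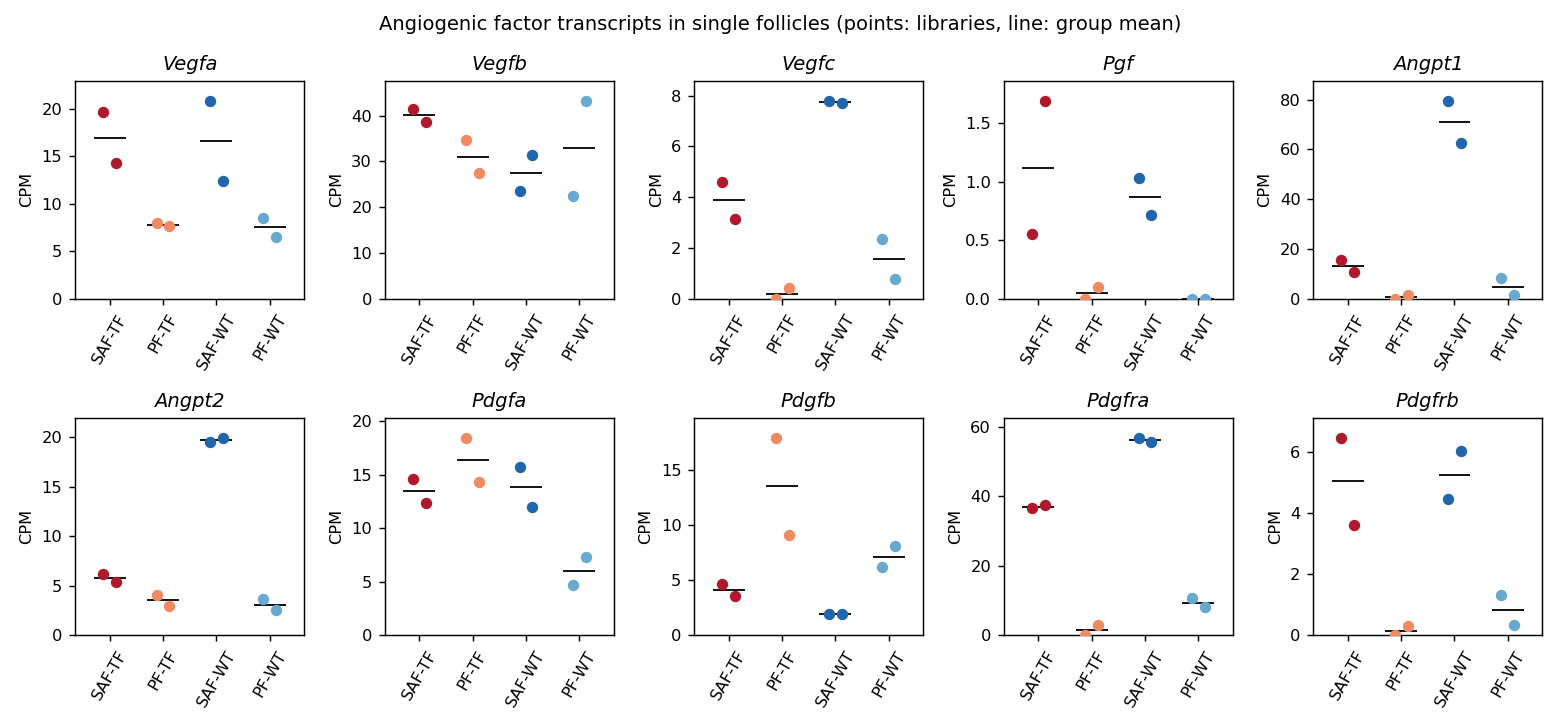
CPM of the 10 genes in each library (points) with the group mean (line), for SAF-TF, PF-TF, SAF-WT and PF-WT; each panel has its own linear axis from 0. Vegfc, Angpt1, Pdgfra and Pdgfrb are near 0 in PF-TF follicles, Angpt1 and Angpt2 are highest in SAF-WT, and Pdgfb is highest in PF-TF.

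Vegfa, the main growth signal for capillaries, was higher in small antral follicles of both sources. It had 19.7 and 14.3 CPM in SAF-TF and 7.96 and 7.61 CPM in PF-TF follicles. In wild type follicles it had 20.9 and 12.4 CPM at the small antral and 8.52 and 6.54 CPM at the preantral stage. The stages did not overlap in either source, and at each stage the TF and WT ranges overlapped. The log2 fold change was 1.12 ± 0.38 (SE, adjusted p = 0.0369) for SAF-TF over PF-TF and 1.14 ± 0.38 (adjusted p = 0.0418) for SAF-WT over PF-WT. The calls sit close to the threshold. In TF the call was lost without SAF-TF replicate 1 (adjusted p = 0.206), SAF-TF replicate 2 (0.0626), PF-TF replicate 1 (0.0856) or PF-TF replicate 2 (0.0782), within a range of 0.0103 to 0.206 over 15 alternatives. In WT the call was lost without SAF-TF replicate 1 (0.0624), SAF-TF replicate 2 (0.0614), SAF-WT replicate 1 (0.318, with a log2 fold change of 0.72), PF-WT replicate 1 (0.0501) or PF-WT replicate 2 (0.169), within a range of 0.0127 to 0.318.

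Vegfb, a Flt1 ligand tied to fatty acid handling and vessel upkeep more than to sprouting, had the highest mean per length of the 10 genes in every group and passed no test between stages or sources. Its values were 41.4 and 38.6 CPM in SAF-TF, 34.7 and 27.4 CPM in PF-TF, 23.6 and 31.4 CPM in SAF-WT and 22.4 and 43.2 CPM in PF-WT. The 2 PF-WT follicles span the range of all the others. The log2 fold change was 0.37 ± 0.34 (adjusted p = 0.410) for SAF-TF over PF-TF and -0.26 ± 0.34 (adjusted p = 0.583) for SAF-WT over PF-WT. Per kilobase of exon, Vegfb averaged 24.9 ± 1.23 CPM in SAF-TF, 19.3 ± 3.25 CPM in PF-TF, 17.1 ± 3.42 CPM in SAF-WT and 20.5 ± 9.17 CPM in PF-WT (SD, n = 2 each). Vegfa averaged 3.96 ± 0.884 CPM per kilobase in SAF-TF and 1.82 ± 0.0577 CPM per kilobase in PF-TF. The remaining genes averaged at most 5.62 CPM per kilobase in every group, apart from Angpt1 with 13.7 ± 2.28 CPM per kilobase in SAF-WT.

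Vegfc, the lymphatic growth factor, was scarce and higher in small antral follicles of both sources. It had 4.61 and 3.15 CPM (42 and 28 counts) in SAF-TF follicles, against 0 and 0.401 CPM (0 and 4 counts) in PF-TF follicles. SAF-WT follicles had 7.79 and 7.69 CPM and PF-WT follicles 2.36 and 0.776 CPM. No 2 groups overlapped, in the order SAF-WT, SAF-TF, PF-WT, PF-TF. The log2 fold change was 4.14 ± 0.96 (adjusted p = 0.00707) for SAF-TF over PF-TF and 2.31 ± 0.78 (adjusted p = 0.0433) for SAF-WT over PF-WT. Vegfc passed the count filter through the small antral libraries alone, so its stage calls are no support for the direction. The TF call held in all 14 alternatives that tested it, and the filter of 10 CPM left Vegfc out. The TF log2 fold change was 3.33 without PF-TF replicate 1. Without PF-TF replicate 2 the preantral side held 0 counts, and the fitted 8.14 is no bound. The WT call was lost without SAF-TF replicate 1 (0.066), SAF-TF replicate 2 (0.0641), SAF-WT replicate 1 (0.143), SAF-WT replicate 2 (0.121) or PF-WT replicate 2 (0.189), and its adjusted p ran from 0.0137 to 0.189 over 14 alternatives.

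Pgf, placental growth factor, was barely present and did not reach the count minimum in the fit over all 8 libraries. It had 5 and 15 counts in SAF-TF and 0 and 1 counts in PF-TF follicles, a ratio of 21.2 with an exact 95% counting interval of 3.38 to 877. It had 9 and 6 counts in SAF-WT follicles, at least 2.40-fold higher than the floor of 3 counts per library in PF-WT follicles, which had 0. These intervals and bounds cover counting error only. Fitted with no filter over 21997 genes, its log2 fold change was 4.10 ± 1.57 (adjusted p = 0.0677) in TF and 5.96 ± 2.02 (adjusted p = 0.0511) in WT, and with preantral libraries at 0 the WT value depends on the prior count. Leaving out 1 library let it be tested in 7 fits, and in WT it then passed without PF-TF replicate 1 (0.0433) or PF-TF replicate 2 (0.0426), in a range of 0.0426 to 0.157, while in TF it passed in none (0.0552 to 0.187). At the small antral stage TF and WT follicles overlapped.

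Both angiopoietins stood highest in SAF-WT follicles. Angpt1, the vessel-steadying ligand, had 15.7 and 10.8 CPM in SAF-TF, 0 and 1.30 CPM in PF-TF, 79.5 and 62.7 CPM in SAF-WT and 8.26 and 1.33 CPM in PF-WT. No 2 groups overlapped, although PF-TF replicate 2 and PF-WT replicate 2 were nearly equal. Between stages its log2 fold change was 4.27 ± 0.97 (adjusted p = 0.00638) in TF and 3.91 ± 0.83 (adjusted p = 0.00609) in WT, and both calls held in all 15 alternatives. The TF value was 3.44 without PF-TF replicate 1; without PF-TF replicate 2, which leaves 0 counts at the preantral stage, the fitted 9.91 is no bound. An antisense gene, Gm17473, overlaps exons of Angpt1, over 653 bases in the largest single overlap. Since the strand setting of the counting is not given in the sources used here, its reads cannot be told apart from those of Angpt1.

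Angpt2, the context-dependent antagonist, rose between stages in wild type follicles. It had 19.6 and 19.997 CPM in SAF-WT and 3.67 and 2.55 CPM in PF-WT follicles, a log2 fold change of 2.67 ± 0.41 (adjusted p = 0.00115) that held in all 15 alternatives. In TF follicles it had 6.15 and 5.41 CPM at the small antral and 4.09 and 3.01 CPM at the preantral stage. These did not overlap either, but the log2 fold change of 0.70 ± 0.40 did not pass (adjusted p = 0.181). The difference between the TF and the WT stage effects was -1.97 ± 0.56 on the log2 scale, with an adjusted p of 0.139, so the stage effects are not shown to differ. Per kilobase of exon, Angpt1 had 3.02 and 2.08 CPM in SAF-TF, 0 and 0.250 CPM in PF-TF, 15.3 and 12.05 CPM in SAF-WT and 1.59 and 0.256 CPM in PF-WT. Angpt2 had 1.67 and 1.47 CPM per kilobase in SAF-TF, 1.11 and 0.815 CPM in PF-TF, 5.31 and 5.42 CPM in SAF-WT and 0.995 and 0.691 CPM in PF-WT. Angpt1 thus stood above Angpt2 in all 4 small antral follicles and in 1 of the 4 preantral ones, PF-WT replicate 1.

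The PDGF ligands went different ways. Pdgfb, the ligand that recruits pericytes, was the only gene of the 10 to fall at the small antral stage. It had 4.61 and 3.60 CPM in SAF-TF against 17.9 and 9.12 CPM in PF-TF follicles, and 1.95 and 1.89 CPM in SAF-WT against 6.16 and 8.09 CPM in PF-WT follicles. No 2 groups overlapped, and at each stage both TF follicles lay above both WT follicles. The log2 fold change was -1.71 ± 0.46 (adjusted p = 0.0142) in TF and -1.89 ± 0.49 (adjusted p = 0.015) in WT. The TF call was lost without SAF-TF replicate 1 (0.0553), SAF-TF replicate 2 (0.0969) or PF-TF replicate 1 (0.147, with a log2 fold change of -1.04), within a range of 0.00803 to 0.147 over 14 alternatives. The WT call was lost without SAF-WT replicate 1 (0.0851), SAF-WT replicate 2 (0.0753) or PF-WT replicate 2 (0.062), within a range of 0.00935 to 0.0851.

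Pdgfa, a ligand of Pdgfra, was higher in small antral follicles in WT and lay lowest in PF-WT. It had 14.6 and 12.4 CPM in SAF-TF, 18.5 and 14.3 CPM in PF-TF, 15.7 and 11.95 CPM in SAF-WT and 4.72 and 7.31 CPM in PF-WT. The first 3 groups overlap in their ranges. The log2 fold change was -0.28 ± 0.36 (adjusted p = 0.554) for SAF-TF over PF-TF and 1.19 ± 0.37 (adjusted p = 0.0315) for SAF-WT over PF-WT, and the difference between the stage effects was -1.47 ± 0.51 (adjusted p = 0.208). The WT call was lost without SAF-TF replicate 1 (0.0521), SAF-TF replicate 2 (0.0525), SAF-WT replicate 1 (0.189), SAF-WT replicate 2 (0.06) or PF-WT replicate 1 (0.102), and its adjusted p ran from 0.00782 to 0.189 over 15 alternatives. The antisense gene 6330403L08Rik overlaps exons of Pdgfa, over 354 bases in the largest single overlap.

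Of the receptors for these ligands, Pdgfra rose steeply between stages, while Pdgfrb was tested through the small antral libraries alone. Pdgfra, carried by theca and stromal cells, had 36.6 and 37.5 CPM (333 counts in each) in SAF-TF follicles, against 0.221 and 3.11 CPM (2 and 31 counts) in PF-TF follicles. It had 56.9 and 55.6 CPM in SAF-WT and 10.7 and 8.09 CPM in PF-WT follicles. Replicates lay close together at the small antral stage, and no 2 groups overlapped, in the order SAF-WT, SAF-TF, PF-WT, PF-TF. The log2 fold change was 4.44 ± 0.68 (adjusted p = 0.000769) in TF and 2.58 ± 0.59 (adjusted p = 0.00869) in WT, and both calls held in all 15 alternatives. Without PF-TF replicate 1 the TF value was 3.68, and without PF-TF replicate 2, which leaves 2 counts at the preantral stage, it was 7.43. Antisense genes overlap Pdgfra exons, with largest single overlaps of 341 bases (Gm42802) and 166 bases (Gm42803).

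Pdgfrb, the receptor of pericytes, followed the same course at a lower level. It passed the count filter through the small antral libraries alone, so its stage calls are no support for the direction. It had 6.48 and 3.60 CPM (59 and 32 counts) in SAF-TF follicles and 0 and 0.301 CPM (0 and 3 counts) in PF-TF follicles. In wild type follicles it had 4.47 and 6.03 CPM at the small antral stage and 1.31 and 0.332 CPM at the preantral stage. Small antral TF and WT follicles overlapped, and every preantral follicle lay below them. The pooled counts of 91 and 3 in TF give a ratio of 32.1 with an exact 95% counting interval of 10.6 to 159. That interval covers counting error only and not the spread between follicles. The fitted log2 fold change was 4.89 ± 1.03 (adjusted p = 0.00423) in TF, where all 14 alternatives kept the call, with 4.11 without PF-TF replicate 1; without PF-TF replicate 2 the preantral side held 0 counts, and the fitted 8.52 is no bound. In WT it was 2.68 ± 0.86 (adjusted p = 0.0357), lost without SAF-TF replicate 1 (0.0603), SAF-TF replicate 2 (0.053), SAF-WT replicate 1 (0.089), SAF-WT replicate 2 (0.128) or PF-WT replicate 2 (0.165), in a range of 0.0111 to 0.165; without PF-WT replicate 1 it was 4.03.

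**Figure D3:**
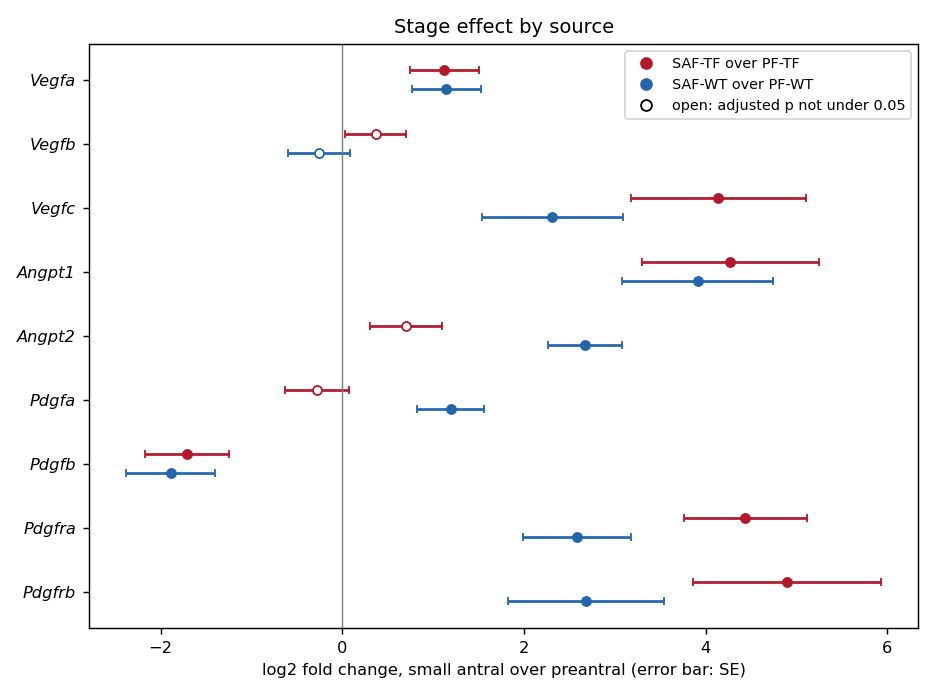
Log2 fold change of small antral over preantral follicles with its SE for the 9 genes tested, TF in red and WT in blue; open points did not pass an adjusted p of 0.05. Vegfc, Angpt1, Pdgfra and Pdgfrb lie above 2 in both sources, Pdgfb lies below 0 in both, and Angpt2 and Pdgfa are filled in WT alone.

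Markers of neighbouring cell types moved along with these stage effects. Over all genes, 18.2% were higher and 25% lower in TF, and 12.7% higher and 22.5% lower in WT. Of 14 pericyte and smooth muscle markers, 13 were higher and 0 lower in SAF-TF over PF-TF, and 9 were higher and 0 lower in SAF-WT over PF-WT. Acta2, smooth muscle actin, had 869 and 553 CPM in SAF-TF, 24.4 and 45.9 CPM in PF-TF, 1690 and 1480 CPM in SAF-WT and 296 and 95.3 CPM in PF-WT. Of 11 theca and interstitial markers tested, 8 were higher in TF and 10 in WT and 0 lower. Their median log2 fold changes were 3.50 in TF and 2.37 in WT. Among them, Hsd3b1, Lhcgr, Cyp11a1 and Star were higher in both sources and also stand in the luteal list below. Cyp17a1, Insl3 and Ptch1 did not pass in TF. Of 12 stroma and fibroblast markers, 9 were higher and 1 lower in each source, with medians of 3.79 in TF and 3.29 in WT. Of 15 endothelial markers, 8 were higher in each source, none was lower in TF, and 1, Pecam1, was lower in WT, with 4.35 and 5.44 CPM in SAF-WT and 14.2 and 12.7 CPM in PF-WT. Ecscr, an endothelial cell surface protein, had 18.7 and 13.3 CPM in SAF-TF, 0.111 and 0 CPM in PF-TF, 45.6 and 36.2 CPM in SAF-WT and 1.57 and 0.443 CPM in PF-WT. In PF-TF replicate 1, where 4 of the 10 angiogenic genes had 0 counts, 6 endothelial and 6 pericyte markers also had 0. Of 12 macrophage markers, 12 were higher in TF and 1 in WT and 0 lower, with medians of 4.82 in TF and 0.54 in WT. Their sum was 858 and 1322 CPM in SAF-TF, 58.8 and 28.7 CPM in PF-TF, 323 and 397 CPM in SAF-WT and 538 and 109 CPM in PF-WT. Of 10 luteal markers, 10 were higher in TF and 5 in WT and 0 lower, with medians of 7.70 in TF and 1.39 in WT. Star, which delivers cholesterol for steroid synthesis, had 1287 and 865 CPM in SAF-TF, 4.98 and 3.21 CPM in PF-TF, 22.0 and 32.2 CPM in SAF-WT and 7.73 and 3.32 CPM in PF-WT. All 12 oocyte markers were lower in TF and 8 in WT. Granulosa markers were lower for 5 of 12 in TF and 6 of 12 in WT. Some markers counted as higher reached the count minimum through the small antral libraries alone, so these calls are no support for the direction. Among endothelial markers they were Cldn5, Ecscr, Esam and Icam2 in both sources, Sox17 in TF, and Mmrn2 and Eltd1 in WT. Among pericyte and smooth muscle markers they were Abcc9, Higd1b and Mcam in both sources, and Kcnj8 and Notch3 in TF. In the macrophage and luteal lists they were Csf1r, Ptprc, Sfrp4 and Ptgfr. The part of any of these cell types in the stage effects was not tested.

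Between sources the preantral follicles gave no call. In PF-TF against PF-WT follicles, 0 of the 9 genes tested passed edgeR's test, where 0.218% of all genes did (39 genes, 0.0669% as higher and 0.151% as lower). At an unadjusted edgeR p under 0.05 there were 4 of the 9 (Vegfc, Angpt1, Pdgfa and Pdgfra), beside 3719 of the 17925 genes tested. DESeq2 called 2 of the 9, beside 1322 of all genes. Pdgfa, at 18.5 and 14.3 CPM in PF-TF above 4.72 and 7.31 CPM in PF-WT, had a log2 fold change of 1.44 ± 0.37 (adjusted p = 0.0804), and DESeq2 gave an adjusted p of 0.0201 in a range of 0.0201 to 0.36 over 14 alternatives. Pdgfra had -2.46 ± 0.67 (adjusted p = 0.0888), with 0.00143 by DESeq2 and 0.0104 without PF-TF replicate 2, in a range of 0.00143 to 0.29; leaving out 1 library, its log2 fold change lay between -5.36 (without PF-TF replicate 2, which leaves 2 counts in PF-TF) and -1.61 (without PF-TF replicate 1). Angpt1 had -2.78 ± 1.01 (adjusted p = 0.161), passing without PF-WT replicate 2 (0.0453) in a range of 0.0453 to 0.757, and its log2 fold change was -0.92 without PF-WT replicate 1. Vegfc had -2.82 ± 1.00 (adjusted p = 0.156), and -1.78 without PF-WT replicate 1. Without PF-TF replicate 2, PF-TF held 0 counts of Angpt1, Vegfc and Pdgfrb, and the fitted -8.36, -6.75 and -5.81 are no bounds. Pdgfrb, with 3 counts in PF-TF and 13 in PF-WT, had a count ratio of 0.202 with an exact 95% counting interval of 0.0369 to 0.735. That interval covers counting error only and not the spread between follicles. The fitted log2 fold change of Pdgfrb, -2.27 ± 1.13, did not pass (adjusted p = 0.287) and was -0.98 without PF-WT replicate 1. For Vegfa, Vegfb and Angpt2 the 2 preantral groups overlapped, with log2 fold changes of 0.05 ± 0.38, -0.08 ± 0.34 and 0.19 ± 0.41. Pdgfb, without overlap, had 0.92 ± 0.45 (adjusted p = 0.278).

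In small antral follicles Angpt2 alone passed, lower in SAF-TF than in SAF-WT follicles. Its 6.15 and 5.41 CPM in SAF-TF against 19.6 and 19.997 CPM in SAF-WT gave a log2 fold change of -1.77 ± 0.39 (adjusted p = 0.0241). That is 1 of the 9 genes tested, beside 9.96% of all genes, 4.61% as higher and 5.34% as lower. The call was lost without SAF-TF replicate 1 (0.172), SAF-TF replicate 2 (0.108), SAF-WT replicate 1 (0.14) or SAF-WT replicate 2 (0.11), in a range of 0.00278 to 0.172, and the log2 fold change stayed between -1.86 and -1.68 over 14 alternatives. Angpt1 was lower by a larger amount, 15.7 and 10.8 CPM in SAF-TF against 79.5 and 62.7 CPM in SAF-WT, but the log2 fold change of -2.42 ± 0.76 did not pass (adjusted p = 0.0732). It passed with the 4 small antral libraries alone (0.0012) and without PF-TF replicate 1 (0.0323), PF-TF replicate 2 (0.032), PF-WT replicate 1 (0.0227) or PF-WT replicate 2 (0.0245), in a range of 0.0012 to 0.287.

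The other genes lay closer together between the sources at the small antral stage. Vegfa, Pdgfa and Pdgfrb had log2 fold changes of 0.03 ± 0.37, -0.03 ± 0.36 and -0.06 ± 0.75 with overlapping groups. Vegfb had 0.54 ± 0.34, Pdgfb 1.09 ± 0.49, Vegfc -0.99 ± 0.73 and Pdgfra -0.60 ± 0.55, each without overlap and with adjusted p of 0.324, 0.179, 0.401 and 0.505. None of these differences passed, and the share of all genes without overlap is not given here. Some markers did differ between SAF-TF and SAF-WT follicles. Luteal markers summed to 37518 and 26838 CPM in SAF-TF and 4139 and 3422 CPM in SAF-WT, with 10 of 10 higher; stroma markers summed to 2420 and 1690 CPM in SAF-TF and 9500 and 6566 CPM in SAF-WT, with 1 higher and 4 lower of 12. Emcn, an endothelial sialomucin, had 31.2 and 30.7 CPM in SAF-TF and 143 and 119 CPM in SAF-WT (-2.08 ± 0.44, adjusted p = 0.0206) and was the only endothelial marker of 15 to pass. Its call was lost without SAF-TF replicate 1 (0.164), SAF-TF replicate 2 (0.0809), SAF-WT replicate 1 (0.136) or SAF-WT replicate 2 (0.0742), in a range of 3.9e-05 to 0.164. Pericyte and smooth muscle markers were lower for 2 of 14 and higher for 0. Mylk, a myosin light chain kinase, had 193 and 189 CPM in SAF-TF and 975 and 665 CPM in SAF-WT (-2.10 ± 0.46, adjusted p = 0.0237). Higd1b had 3.73 and 2.48 CPM in SAF-TF and 20.5 and 11.6 CPM in SAF-WT (-2.36 ± 0.64, adjusted p = 0.0468). Both calls were lost on leaving out any 1 of the 4 small antral libraries, with adjusted p of 0.0567 to 0.17 for Mylk and 0.102 to 0.312 for Higd1b, which the replicate block also lost (0.0787). Of 11 theca and interstitial markers 5 were higher and 4 lower. Those higher were Mgarp and the genes shared with the luteal list, Hsd3b1, Lhcgr, Cyp11a1 and Star. Those lower were Cyp17a1, Insl3, Hhip and Ptch1. Macrophage markers were higher for 3 of 12, granulosa markers higher for 2 of 12 and oocyte markers lower for 3 of 12. None of these 3 lists had a call in the other direction. The part of any of these markers in the Angpt2 difference was not tested.

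**Figure D4:**
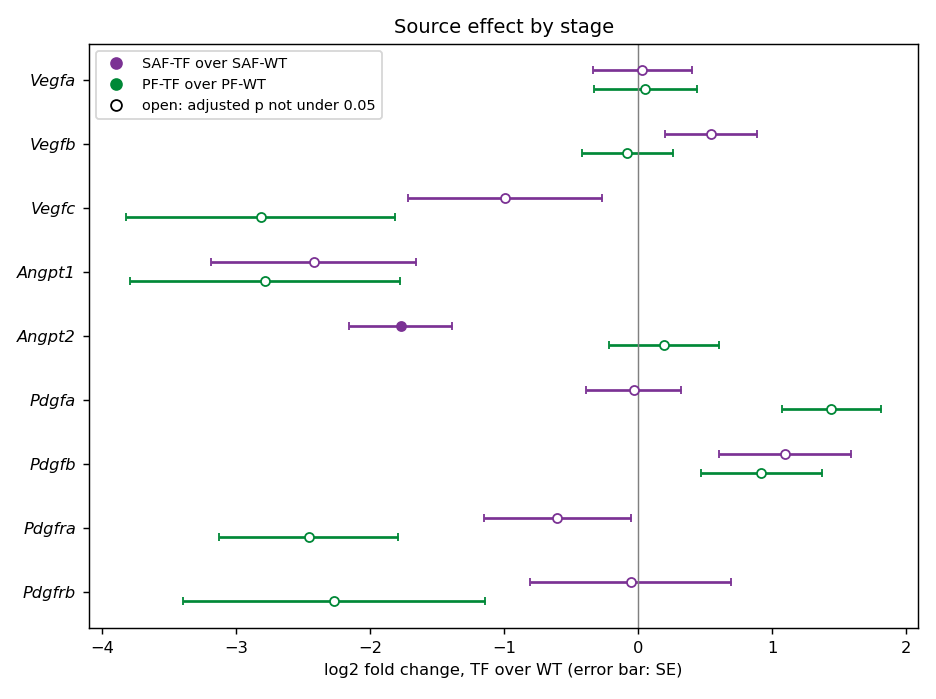
Log2 fold change of TF over WT follicles with its SE for the 9 genes tested, small antral in purple and preantral in green; open points did not pass an adjusted p of 0.05. Angpt2 in small antral follicles, at -1.77, is the single filled point.

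Whether the stage effect itself differed between TF and WT follicles was asked with an interaction term. With edgeR 0 of the 9 genes passed, where 0.904% of all genes did (162 genes, 0.658% as higher and 0.245% as lower). At an unadjusted edgeR p under 0.05 there were 2 (Angpt2 and Pdgfa), beside 2753 of the 17925 genes tested. DESeq2 called 0 of the 9, beside 810 of all genes. Angpt2 (-1.97 ± 0.56) and Pdgfa (-1.47 ± 0.51) had the lower stage effect in TF, while Pdgfra (1.86 ± 0.86), Vegfc (1.83 ± 1.23) and Pdgfrb (2.21 ± 1.35) had the higher one, on the log2 scale, and none of these differences passed. The last 3 rest on the preantral libraries: Vegfc was 0.84 and Pdgfrb 0.97 without PF-WT replicate 1, Pdgfra was 1.06 without PF-TF replicate 1, and without PF-TF replicate 2 the fitted values were 4.81 for Pdgfra, 5.80 for Vegfc and 5.80 for Pdgfrb, the last 2 against 0 counts. Pdgfra passed without PF-TF replicate 2 (0.0176), in a range of 0.0176 to 0.597 over 13 alternatives. For Vegfa the difference was -0.02 ± 0.53, for Pdgfb 0.17 ± 0.65, for Angpt1 0.36 ± 1.20 and for Vegfb 0.63 ± 0.48.

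The receptors and sister ligands of the same pathways were also measured. Of the 4 sister ligands found, Figf, the symbol used in the files for the lymphatic growth factor now named Vegfd, had 7.58 and 4.05 CPM in SAF-TF, 0.332 and 0.501 CPM in PF-TF, 59.6 and 71.9 CPM in SAF-WT and 3.93 and 0.665 CPM in PF-WT. It rose between stages by 3.75 ± 0.77 in TF (adjusted p = 0.00377) and by 4.86 ± 0.65 in WT (adjusted p = 0.00059) on the log2 scale. Figf had 3 and 5 counts in PF-TF and 30 and 6 counts in PF-WT follicles. It reached the count minimum through the small antral libraries alone, so its stage calls are no support for the direction. At the small antral stage it was lower in TF, with a log2 fold change of -3.49 ± 0.59 (adjusted p = 0.0104), which was lost without SAF-TF replicate 1 (0.0679), SAF-WT replicate 1 (0.0525) or SAF-WT replicate 2 (0.0555), in a range of 9.48e-08 to 0.0679. As with Angpt1 and Angpt2, both SAF-WT follicles stood above all others.

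Pdgfd, a Pdgfrb ligand, rose by 1.66 ± 0.39 in TF (adjusted p = 0.00691; 0.0716 without SAF-TF replicate 1, the only 1 of 15 alternatives to lose it) and by 2.56 ± 0.42 in WT (adjusted p = 0.00157). It had 58.8 and 34.1 CPM in SAF-TF, 11.2 and 18.1 CPM in PF-TF, 20.2 and 29.3 CPM in SAF-WT and 3.67 and 4.65 CPM in PF-WT. Pdgfc, a Pdgfra ligand, had 22.2 and 24.1 CPM in SAF-TF against 70.9 and 64.3 CPM in PF-TF follicles, and fell by 1.55 on the log2 scale (SE 0.49, adjusted p = 0.0277). That call was lost with the authors' scale factors (0.0573) and without SAF-TF replicate 1 (0.123), SAF-TF replicate 2 (0.1) or PF-TF replicate 1 (0.0788), in a range of 0.000851 to 0.123. In WT the 2 preantral follicles disagreed, 19.1 and 71.7 CPM beside 26.2 and 23.5 CPM in SAF-WT, and Pdgfc passed only without PF-WT replicate 1 (0.00463), in a range of 0.00463 to 0.413. Angpt4, a further Tek ligand, reached at most 1.55 CPM in any library.

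Among 7 receptors, 3 were higher and 0 lower in SAF-TF over PF-TF, and 4 higher and 0 lower in SAF-WT over PF-WT. Those higher include Kdr in both sources, which was tested through the small antral libraries alone. Over all genes, 18.2% were higher and 25% lower in TF, and 12.7% higher and 22.5% lower in WT. Nrp1, a co-receptor for VEGF and semaphorins, had the highest mean per length of the 7 in every group, with 72.9 and 60.4 CPM in SAF-TF, 11.6 and 14.2 CPM in PF-TF, 84.0 and 81.1 CPM in SAF-WT and 31.8 and 18.0 CPM in PF-WT. It rose by 2.36 ± 0.31 in TF (adjusted p = 0.000348) and 1.73 ± 0.30 in WT (adjusted p = 0.00231) on the log2 scale. Nrp2, a co-receptor for Vegfc, rose by 4.01 ± 0.59 (adjusted p = 0.00061) and 2.82 ± 0.54 (adjusted p = 0.00354). Both neuropilins are also made by cells other than endothelium. Kdr, the principal Vegfa receptor, had 5.93 and 3.60 CPM in SAF-TF, 0.885 and 0.601 CPM in PF-TF, 3.21 and 10.1 CPM in SAF-WT and 0.655 and 0.332 CPM in PF-WT. Kdr had 8 and 6 counts in PF-TF and 5 and 3 counts in PF-WT follicles. It reached the count minimum through the small antral libraries alone, so its stage calls are no support for the direction. Its log2 fold change was 2.67 ± 0.74 in TF (adjusted p = 0.0166; 0.0931 without SAF-TF replicate 1 and 0.0505 without PF-TF replicate 2, in a range of 0.0055 to 0.0931) and 3.73 ± 0.79 in WT (adjusted p = 0.0061; 0.055 without SAF-WT replicate 2, in a range of 0.000243 to 0.055).

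The angiopoietin receptor Tek rose in WT alone. It had 10.3 and 7.69 CPM in SAF-WT against 2.49 and 3.44 CPM in PF-WT follicles, a log2 fold change of 1.59 ± 0.50 (adjusted p = 0.0332). The call was lost without SAF-WT replicate 1 (0.183), SAF-WT replicate 2 (0.0693), PF-WT replicate 1 (0.103) or PF-WT replicate 2 (0.0696), in a range of 0.0116 to 0.183. In TF, Tek had 5.16 and 3.04 CPM at the small antral and 4.53 and 3.01 CPM at the preantral stage, with a log2 fold change of 0.12 ± 0.49 (adjusted p = 0.860). The difference between the 2 stage effects was -1.47 ± 0.70 (adjusted p = 0.357), so a difference between the sources is not shown. Flt1, Flt4 and Tie1 stayed under 4 CPM in every library and did not pass in either source; Flt4 in TF passed without PF-TF replicate 2 (0.0272, in a range of 0.0272 to 0.298) and Tie1 in TF without PF-TF replicate 1 (0.0417, in a range of 0.0417 to 1), where the preantral side held 0 counts.

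**Figure D5:**
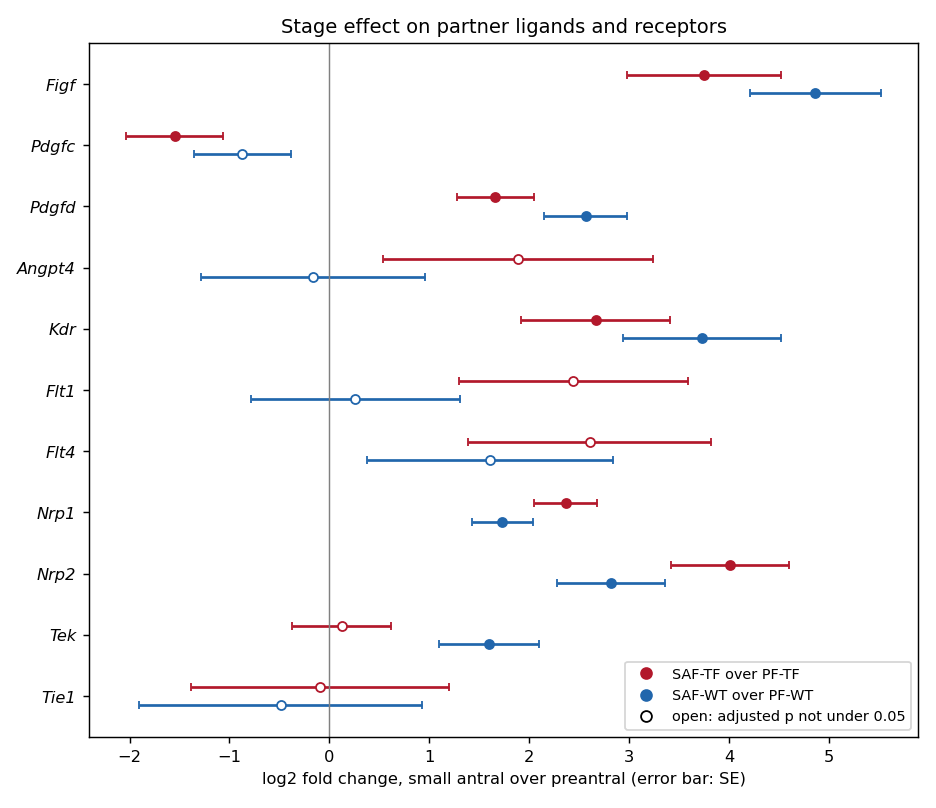
Log2 fold change of small antral over preantral follicles with its SE for 4 sister ligands and 7 receptors, TF in red and WT in blue; open points did not pass an adjusted p of 0.05. Figf, Pdgfd, Kdr, Nrp1 and Nrp2 are filled and above 0 in both sources, Pdgfc is filled and below 0 in TF, and Tek is filled in WT alone.

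To show which other genes have a like pattern, each of the 9 genes was set against 8913 genes of at least 10 CPM by the root mean square difference of centred log2 CPM over the 8 libraries, as a description with no test. The genes nearest to Vegfa were Smad1 (0.0955), a transducer of BMP signals, and Sult1a1 (0.168), a sulfotransferase. Those nearest to Vegfb were Slc25a33 (0.097), a mitochondrial pyrimidine carrier, and Srsf9 (0.136), a splicing factor. Angpt2 lay nearest to Fbn1 (0.237) and Col6a3 (0.285), which encode fibrillin-1 and a collagen VI chain, and Angpt1 to Cryab (0.326), a small heat shock protein, and Lox (0.467), the enzyme that crosslinks collagen and elastin. Vegfc lay nearest to Cnn2 (0.353), a calponin, and Wipf1 (0.405), an actin regulator; Pdgfrb to Cnn2 (0.207) and Col6a2 (0.302). Pdgfra lay nearest to Clec14a (0.279), a lectin of endothelial cells, and Lhx9 (0.381), a gonadal transcription factor. Pdgfa lay nearest to Igdcc4 (0.195) and Sgce (0.196), and Pdgfb to Thap4 (0.18) and Atg14 (0.185). Cnn2 itself had 82.6 and 55.9 CPM in SAF-TF, 2.54 and 6.91 CPM in PF-TF, 72.9 and 72.4 CPM in SAF-WT and 22.8 and 10.1 CPM in PF-WT. Among the 10 genes themselves the closest pair was Vegfc and Pdgfrb (0.453), the 2 genes tested with the fewest counts in preantral follicles.

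The authors compared small antral with preantral follicles within each source, by a test that is not given in the sources used here. For the receptors, the authors' deposited table gives log2 fold changes of 4.80 (Pdgfra) and 5.37 (Pdgfrb) in TF and 2.92 and 2.99 in WT. For Vegfb in TF the authors' deposited table gives 0.72 with an FDR of 1.55e-15, where the fit above gave 0.37 and an adjusted p of 0.410. Refitted with the authors' scale factors, its log2 fold change was also 0.72, with an adjusted p of 0.0937, so the folds differ by the scaling. For Pdgfb the authors' deposited table gives -1.36 with an FDR of 0.0531 in TF and -1.54 with an FDR of 1 in WT, where both fits above passed. Signs differ for Pdgfa in TF and Vegfb in WT, which the authors' deposited table gives as 0.07 and 0.10 and the fits above as -0.28 and -0.26, none of them past a threshold.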

How the data were processed

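Polyadenylated RNA of follicles separated by needle was turned into cDNA with a SMARTer Ultra Low Input kit, per the labels' protocols. HISAT2 2.0.1 aligned the reads to GRCm38, per the submitters' processing notes. No source used here names the read counter, its annotation or its strand setting. Per the file headers, the authors deposited raw counts per gene and library, in 1 table for TF and 1 for WT. Each deposited normalized column is a group's mean signal, made from counts that the authors scaled library by library inside a table. From these the authors made the deposited log2 ratios of SAF over PF, beside an FDR, which is an adjusted p-value of theirs.

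Counts of the 21997 shared genes in all 8 libraries were fitted together with edgeR 4.0.16 (R 4.3.3): TMM factors, filterByExpr by group with a minimum count of 10 and a minimum total of 15, 1 mean per group and the quasi-likelihood test, with 4 residual degrees of freedom. Benjamini-Hochberg adjustment ran over the 17925 genes tested; adjusted p-values, with a threshold of 0.05, are edgeR's unless another tool is named. Genes listed only for TF (132) or only for WT (141) were left out. Each SE was taken as the size of the log2 fold change over the root of its F. CPM used TMM-scaled totals; levels per kilobase used merged GENCODE M21 exons. Replicates of every group differed beyond counting noise. Each comparison had 2 libraries a group, and the stage and source comparisons share groups.

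Alternatives were RLE factors, the authors' scale factors, DESeq2 1.42.0, no filter, a filter of 10 CPM in 2 libraries, a replicate block, a fit of the 4 libraries compared, and leaving out each library. The fit was tested on simulated counts with known changes. The 10 genes and all gene lists were chosen with earlier results of these data known. Named were the 10 genes and all partner ligands and receptors found. Also named were up to 3 markers per list and up to 4 hypoxia response or other angiogenesis regulator genes per comparison. The 2 genes nearest to each of the 9 were named too. Pecam1, and the theca markers named without values, were chosen after their values were seen. So were the genes named for few preantral counts, which go beyond these limits.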

Additional observations from a re-analysis of the deposited data

Results flagged for a closer look

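Bnip3, a mitophagy receptor induced by low oxygen, had a larger stage effect in TF than in WT follicles. It had 746 and 664 CPM in SAF-TF, 163 and 167 CPM in PF-TF, 289 and 239 CPM in SAF-WT and 289 and 248 CPM in PF-WT, so both SAF-TF follicles stood above all others. The difference between the stage effects was 2.12 ± 0.27 on the log2 scale (adjusted p = 0.0117) and was lost without SAF-WT replicate 2 (0.0744).

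For Ldha, a lactate dehydrogenase subunit, the stage effects also differed between TF and WT, by 1.65 ± 0.30 on the log2 scale (adjusted p = 0.0399). It had 244 and 241 CPM in SAF-TF, 142 and 120 CPM in PF-TF, 177 and 175 CPM in SAF-WT and 247 and 348 CPM in PF-WT, so the stages lay in opposite order in the 2 sources. This call was lost with the replicate block (0.0859) and without SAF-TF replicate 1 (0.13), SAF-TF replicate 2 (0.0882), PF-TF replicate 1 (0.0628), PF-TF replicate 2 (0.062), SAF-WT replicate 1 (0.121) or SAF-WT replicate 2 (0.171).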

How the results depend on the processing

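With 2 libraries a group, counts of genes passing moved with the method. PF-TF over PF-WT gave 39 genes, against 207 with no filter, 1322 with DESeq2, 6 with the replicate block and 3 with the 4 libraries compared. SAF-TF over SAF-WT gave 1785, against 2849 with DESeq2, 1069 with the block and 3921 with the 4 libraries compared, and the interaction gave 162, against 810 with DESeq2 and 74 with the block. Leaving out 1 library, genes passing ran from 5136 to 8166 in SAF-TF over PF-TF, 3075 to 6594 in SAF-WT over PF-WT, 1 to 935 in PF-TF over PF-WT, 143 to 2468 in SAF-TF over SAF-WT and 28 to 343 in the interaction.

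Of the 10 angiogenic genes, the 10 CPM filter left 3 of 6 calls in SAF-TF over PF-TF and 5 of 8 in SAF-WT over PF-WT, since it removes Vegfc, Pdgfb and Pdgfrb. The replicate block left 5 of 8 in SAF-WT over PF-WT (Vegfc 0.0624, Pdgfa 0.0516 and Pdgfrb 0.0535 did not pass) and changed no other call of theirs. DESeq2 called 2 in PF-TF over PF-WT and the 4-library fit 2 in SAF-TF over SAF-WT, while Vegfa (0.0623) and Pdgfa (0.0559) did not pass in the 4-library fit of SAF-WT over PF-WT, nor Vegfa (0.0511) with no filter. Leaving out 1 library, calls ran from 4 to 6, 3 to 9, 0 to 1, 0 to 2 and 0 to 1 in the same order of comparisons; the 9 include Pgf. Same-numbered libraries correlated in their deviations from the group mean by -0.12 to 0.113 over the 6 pairs of groups, so the numbers were not taken to pair samples.

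Signs turned for small effects. In SAF-TF over PF-TF, Pdgfa was 0.07 with the authors' factors and Tie1 0.17 with the block and 0.27 with those factors. In SAF-WT over PF-WT, Vegfb was 0.10 with the authors' factors and Angpt4 0.02 with RLE factors, 0.04 with DESeq2 and 0.19 with the authors' factors. In SAF-TF over SAF-WT, Vegfa was -0.03 with RLE factors and with DESeq2, and Pdgfa 0.01 with 4 libraries; in the interaction Vegfa was 0.01 with the 10 CPM filter. Leaving out 1 library, these log2 fold changes crossed 0: in SAF-TF over PF-TF Pdgfa -0.40 to 0.02, Tek -0.30 to 0.55 and Tie1 -0.97 to 6.63; in SAF-WT over PF-WT Vegfb -0.54 to 0.29, Pdgfc -1.41 to 0.38, Angpt4 -1.08 to 1.13, Flt1 -0.42 to 1.59 and Tie1 -0.83 to 0.15. In PF-TF over PF-WT they were Vegfa -0.13 to 0.30, Vegfb -0.44 to 0.47 and Angpt2 -0.06 to 0.52. In SAF-TF over SAF-WT they were Vegfa -0.30 to 0.45, Pdgfa -0.22 to 0.18 and Pdgfrb -0.53 to 0.31, and in the interaction Vegfa -0.35 to 0.40, Angpt1 -1.46 to 5.99 and Pdgfb -0.15 to 0.79. The cause of these turns was not tested.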

Other observations

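Genes that respond to low oxygen, a known inducer of Vegfa, were followed as a list. Of 21 tested, 6 were higher and 5 lower in SAF-TF over PF-TF, and 1 was higher and 4 lower in SAF-WT over PF-WT. Over all genes, 18.2% were higher and 25% lower in TF, and 12.7% higher and 22.5% lower in WT. The median log2 fold changes of the list were 0.45 in TF and -0.34 in WT, beside -0.08 and -0.20 over all genes. Between sources 1 was higher in SAF-TF over SAF-WT, where 4.61% of all genes were, and 0 passed in PF-TF over PF-WT, where 0.218% of all genes did. Bnip3, a mitophagy receptor, and Ndrg1, a stress-response gene, were among the 6 that rose in TF. Bnip3 had a log2 fold change of 2.09 ± 0.20 (adjusted p = 6.2e-05). That of Ndrg1 was 3.16 ± 0.57 (adjusted p = 0.00182), and both calls held in 15 alternatives. Ndrg1 had 12.9 and 11.7 CPM in SAF-TF, 1.11 and 1.603 CPM in PF-TF, 12.6 and 7.57 CPM in SAF-WT and 5.90 and 2.33 CPM in PF-WT. Car9, a carbonic anhydrase, had 10.4 and 4.50 CPM in SAF-TF, 58.0 and 61.4 CPM in PF-TF, 2.52 and 6.51 CPM in SAF-WT and 47.4 and 33.5 CPM in PF-WT, and fell by 2.99 (SE 0.49, adjusted p = 0.00114) in TF and by 3.16 (SE 0.51, adjusted p = 0.00148) in WT on the log2 scale. Egln1, an oxygen-sensing prolyl hydroxylase, fell by 1.41 (SE 0.23, adjusted p = 0.00112) in TF and by 1.09 (SE 0.23, adjusted p = 0.00583; 0.0577 without SAF-WT replicate 1) in WT on the log2 scale. Adm, adrenomedullin, a vessel-active peptide, was the single gene of the list to rise in WT, with 13.1 and 11.6 CPM in SAF-WT and 1.83 and 0.554 CPM in PF-WT (3.38 ± 0.67, adjusted p = 0.00414). It was also higher in TF, with 9.67 and 6.31 CPM in SAF-TF and 0.221 and 0.801 CPM in PF-TF (3.91 ± 0.71, adjusted p = 0.00201). Adm reached the count minimum through the small antral libraries alone, so its stage calls are no support for the direction.

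Of 23 other angiogenesis regulators tested, 8 were higher and 2 lower in SAF-TF over PF-TF, and 5 higher and 1 lower in SAF-WT over PF-WT. Of those higher, Eng, Robo4, Apln and Cyr61 in TF and Aplnr in WT reached the count minimum through the small antral libraries alone. Their stage calls are no support for the direction. Over all genes, 18.2% were higher and 25% lower in TF, and 12.7% higher and 22.5% lower in WT. Between sources, the shares of all genes that were lower were 0.151% in PF-TF over PF-WT and 5.34% in SAF-TF over SAF-WT. In PF-TF over PF-WT 1 was lower, Ctgf, a matricellular protein, with 6.53 and 3.01 CPM in PF-TF and 48.2 and 31.3 CPM in PF-WT. Its log2 fold change of -3.06 ± 0.42 (adjusted p = 0.0416) was lost with the replicate block (0.0886), with the 4 libraries compared (0.109) and without PF-TF replicate 1 (0.0568), SAF-WT replicate 1 (0.075), SAF-WT replicate 2 (0.0714) or PF-WT replicate 1 (0.0897). In SAF-TF over SAF-WT 2 were lower, Sema3c and Thbs2, and both calls were lost without SAF-TF replicate 1, SAF-WT replicate 1 or SAF-WT replicate 2, at adjusted p of 0.0926 to 0.287. The Thbs2 call was also lost with the replicate block (0.0607) and without SAF-TF replicate 2 (0.179). Timp3, a matrix protease inhibitor that also blocks Kdr, had 118 and 101 CPM in SAF-TF, 15.04 and 17.7 CPM in PF-TF, 86.7 and 105 CPM in SAF-WT and 18.2 and 10.9 CPM in PF-WT. It rose by 2.73 ± 0.29 in TF (adjusted p = 0.000115) and 2.73 ± 0.30 in WT (adjusted p = 0.0002) on the log2 scale. Sema3c, a semaphorin that signals through neuropilins, had 29.9 and 55.2 CPM in SAF-TF, 78.4 and 84.2 CPM in PF-TF, 96.9 and 96.9 CPM in SAF-WT and 33.7 and 47.1 CPM in PF-WT. Its stage effects were -0.93 ± 0.30 (adjusted p = 0.031) in TF and 1.26 ± 0.30 (adjusted p = 0.0108; 0.0588 without SAF-WT replicate 1) in WT on the log2 scale, and the difference between them missed the threshold (adjusted p = 0.0534).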
